A study of Caenorhabditis elegans with 2 samples.

Results

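The regions described here are the strong ChIP-seq regions of ZTF-1, a zinc finger protein followed by its tag, that lay far from any protein-coding gene of Caenorhabditis elegans. They were selected on measured signal and on position. In the ranked list that compared the replicates, entries with a signal of 50 or more were kept, overlapping ones were merged, and the summit of the highest entry stood for the region. A region was called distal intergenic where its summit lay inside no protein-coding gene and more than 500 bp from the start and the end of every one. Of 7175 strong regions, 1206 met the rule (16.8%). The other strong summits lay in coding sequence (3005), in introns (1984), within 500 bp upstream of a start (454), in untranslated regions (293) or elsewhere near a gene (233). With entries of any signal merged, the regions of the ranked list numbered 43349, and 8025 of them were distal intergenic with a signal below 50. These are called the weaker distal intergenic regions.

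The experiment had 1 group with 2 biological replicates of whole L2 larvae, 28.5 hours old. Cultures had been synchronised from bleached animals whose L1 larvae were starved. The strain, OP207, carries an integrated fosmid transgene, wgIs207, in which ztf-1 is joined to TY1 tags, eGFP and FLAG tags, beside an unc-119 marker. Chromatin was sonicated and precipitated with an antibody against GFP, so the signal is that of the tagged protein in all tissues mixed. The strain is 1 transgenic line, and the worms' native ztf-1 was not assayed. With 1 group there was no contrast between conditions, and the members' signal had chosen them, so no test was made and every comparison below is a description. Read counts were not among the data used, so the depth behind a signal is unknown.

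ZTF-1 belongs to a family of worm proteins with zinc finger domains, folds that in many transcription factors contact DNA. The worm genome is compact, and most protein-coding genes have their promoter directly upstream of the start. The sequence between distant genes holds enhancers, pseudogenes and many small noncoding RNA genes. These include tRNA genes, transcribed by RNA polymerase III with promoter elements inside the gene, and miRNA genes, whose short mature RNAs recognise messenger RNAs mainly through a seed near the 5′ end.

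The sequence under 8 members is shown first, because the members ranged widely in base composition and these carry the strongest signals or a small RNA gene. Each is the forward strand of assembly ce11 (WBcel235, from the RefSeq copy) in 100 bp around the summit, and the capitals mark CG dinucleotides. The first 6 are the members with the highest signals, the seventh lies beside a tRNA-Arg gene, and the last covers part of mir-52. Their places are chrX:4209219-4209318, chrIV:2219576-2219675, chrX:11094112-11094211, chrV:1151426-1151525, chrX:11606052-11606151, chrX:16929944-16930043, chrX:8036449-8036548 and chrIV:14034019-14034118.
F20B6.9 region: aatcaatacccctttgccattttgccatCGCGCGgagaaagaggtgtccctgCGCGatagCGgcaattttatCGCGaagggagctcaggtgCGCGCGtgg
T04C4.3 region: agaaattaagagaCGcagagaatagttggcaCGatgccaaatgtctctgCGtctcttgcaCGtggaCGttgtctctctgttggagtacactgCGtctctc
W02H3.3 region: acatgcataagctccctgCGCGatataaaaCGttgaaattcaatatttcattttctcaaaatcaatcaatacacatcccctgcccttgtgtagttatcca
linc-128 region: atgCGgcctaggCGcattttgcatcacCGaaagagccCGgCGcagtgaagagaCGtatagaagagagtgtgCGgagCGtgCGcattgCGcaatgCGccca
ftt-2 region: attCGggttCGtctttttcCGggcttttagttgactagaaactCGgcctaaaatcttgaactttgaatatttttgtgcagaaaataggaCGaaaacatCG
C30E1.4 region: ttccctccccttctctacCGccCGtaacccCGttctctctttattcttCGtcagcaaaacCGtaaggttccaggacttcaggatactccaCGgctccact
xol-1 region: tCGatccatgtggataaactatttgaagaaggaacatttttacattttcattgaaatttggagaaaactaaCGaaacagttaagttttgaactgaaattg
mir-52 region: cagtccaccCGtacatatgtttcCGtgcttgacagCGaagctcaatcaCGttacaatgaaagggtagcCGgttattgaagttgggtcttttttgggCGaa
The F20B6.9 and linc-128 windows each held 11 CG dinucleotides, at GC contents of 57% and 59%. The xol-1 window held 2, at 29%, and the W02H3.3 window 3, at 37%. High signal thus occurred on sequence of both kinds.

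Member signals ran from 50.02 to 198, with a median of 58.3 and quartiles of 53.5 and 65.5. The signal is the authors' peak strength, with no stated unit. Just inside the signal limit were summits at positions 19067703 of chromosome V, 4132507 of X and 6351624 of III, with signals of 50.03, 50.02 and 50.02. The nearest distal intergenic regions outside it had signals of 49.9956, 49.9939 and 49.9914. Just inside the distance limit were summits 501 bp upstream of icd-1, 501 bp upstream of aat-9 and 503 bp from the end of fmil-1. The nearest outside it lay at 498, 496 and 493 bp. The deposited q-values of the members were high, with a median of 0.870, and their median IDR was 0.181. IDR, the irreproducible discovery rate, is small where a peak ranks high, and at like places, in both lists compared. A signal of 50 in these lists therefore did not go with a low q-value, and 92.3% of the members came from 1 entry of the list.

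Of the 1206 members, 1011 had their summit inside an entry of the ranked list of replicate 1 (83.8%, exact 95% Clopper-Pearson interval 81.6 to 85.9%). The list of replicate 2 held 904 of them (74.96%, 72.4 to 77.4%). Both lists held 736 (61.0%, 58.2 to 63.8%), 275 were listed in replicate 1 alone, 168 in replicate 2 alone and 27 in neither. Of the weaker distal intergenic regions, both lists held 9.88% (9.24 to 10.6%). The share in both lists was 63.0% for strong regions within 500 bp upstream of a start and 66.4% for strong intronic regions. All such intervals cover counting error only, and since the rule used the combined signal, the higher share of members than of weaker regions is a description.

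Where listed, the members' signal in replicate 1 had a median of 34.6, from 8.55 to 120.2. In replicate 2 the median was 28.3, from 5.03 to 87.0. The ratio of replicate 1 to replicate 2 over the 736 members had a median of 1.21, with 501 members higher in replicate 1 and 622 within 2-fold. The widest ratios in each direction are given next. A summit 1584 bp upstream of ceh-36, an Otx-type homeobox gene, had signals of 40.2 in replicate 1 and 5.03 in replicate 2, and one far upstream of zfh-2, a zinc finger homeobox gene, had 47.4 and 6.40. In the other direction, a summit 2314 bp upstream of smp-1, a semaphorin gene, had 8.55 in replicate 1 and 33.1 in replicate 2. One 1587 bp upstream of cbp-1, the worm CBP/p300 acetyltransferase gene, had 16.3 and 53.3. These 4 regions rested mainly on 1 library each.

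**Figure D1:**
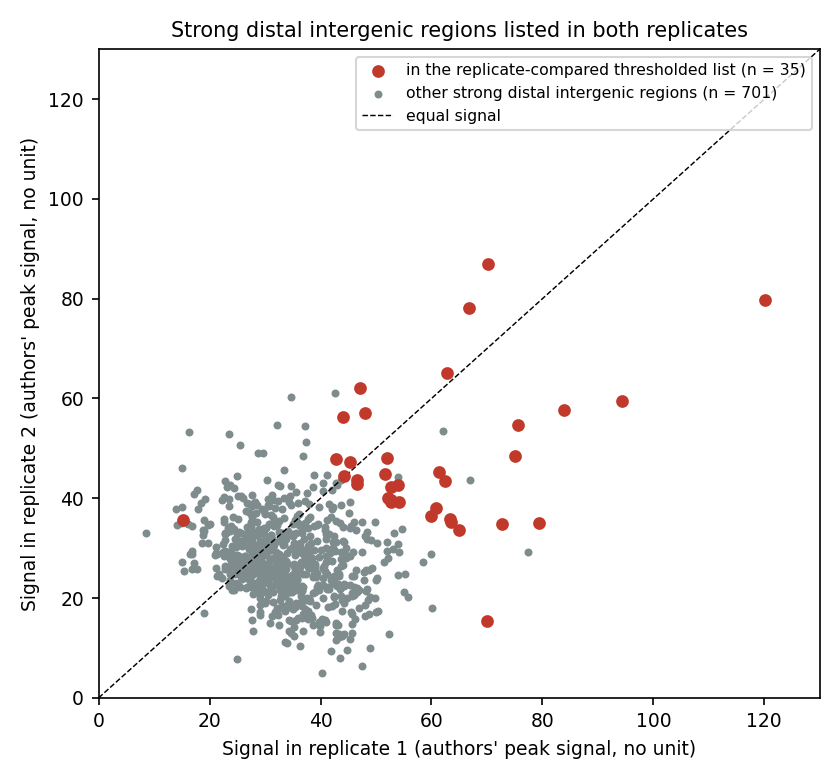
Signal of the 736 strong distal intergenic regions listed in both replicates, replicate 1 on the horizontal axis and replicate 2 on the vertical axis, both as the authors' peak signal; the dashed line marks equal values. The 35 points in red overlap the replicate-compared thresholded list, and most points lie between 15 and 60 on both axes, more of them below the line (501) than above it.

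The authors' thresholded lists hold the entries with an IDR of 0.01 or less. The replicate-compared thresholded list overlapped 37 members (3.07%), beside 0.494% of all merged ranked regions. The pooled list overlapped 25 (2.07%), beside 0.36%. The list of replicate 1 overlapped 4 (0.332%), beside 0.0415%, and that of replicate 2 overlapped 2 (0.166%), beside 0.0392%. A q-value of 0.05 or less was found at 5 members (0.415%), beside 0.06%. The same signals and ranks went into the rule and into these lists, so nothing is read from the higher shares. The 37 had a median signal of 98.3, and the other 1169 had 58.0. They were spread over all chromosomes, with 12 on X. Of strong regions within 500 bp upstream of a start, 7.71% were in the replicate-compared list, and of strong intronic regions 2.92%.

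The strongest member had its summit at position 4209269 of chromosome X, 1784 bp upstream of F20B6.9 and 1302 bp past the end of hpk-1, which encodes a homeodomain-interacting protein kinase. Its combined signal was 198, with 120.2 in replicate 1 and 79.7 in replicate 2, and it was the 1 member in the thresholded lists of both replicates. The second, at 2219626 of IV, lay 2770 bp upstream of T04C4.3 and 3202 bp from fnip-2, with a signal of 156 (94.4 in replicate 1 and 59.5 in replicate 2). The third, at 11094162 of X, lay between the ends of W04G3.11 and W02H3.3, which point toward each other, with 148 (66.7 and 78.1). These 3, with the next 2, were the members with a q-value of 0.0189.

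The fourth, at 1151476 of V, lay by the long intergenic noncoding RNA gene linc-128, 4795 bp upstream of cmd-1, the calmodulin gene, with a signal of 146 (83.8 in replicate 1 and 57.7 in replicate 2). A further member stood 989 bp upstream of cmd-1 with 101 (54.1 and 39.2). The gap between cutl-22 and cmd-1, 9769 bp long, held 3 members in all, the lowest at 1149545 with a signal of 58.5. The fifth, at 11606102 of X, lay 683 bp upstream of ftt-2, a 14-3-3 protein gene, at 4 genes of the class the annotation calls ncRNA, with 144 (70.2 and 87.0). Of the 5 strongest, 3 were higher in replicate 1 and the W02H3.3 and ftt-2 regions in replicate 2.

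Among the next 10 by signal were summits 1831 bp past the end of C30E1.4 (signal 122), 889 bp upstream of acbp-6, an acyl-CoA-binding protein gene (115.4), and 4814 bp upstream of xol-1, the switch gene of worm sex determination and dosage compensation (114.8). Others lay 724 bp upstream of F22F1.3 (113), between adm-2, an ADAM family protease gene, and K02D3.1 (113), and 1236 bp upstream of unc-64, which encodes syntaxin (110.1). The list went on with summits 2692 bp upstream of cpt-1, a carnitine palmitoyltransferase gene (108), between bam-2 and Y71F9AR.4 (107), 755 bp upstream of eel-1, a HECT-type ubiquitin ligase gene (102), and again between C30E1.4 and F52G3.8 (102). Of these 10, the bam-2 region and the last were outside the replicate-compared thresholded list and in the pooled list. At xol-1 the replicates differed most among those in the thresholded list, with 79.4 in replicate 1 and 35.1 in replicate 2.

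Other members of the replicate-compared thresholded list lay near genes of several kinds. A summit 635 bp upstream of wve-1, a WAVE complex gene (signal 102), lay slightly nearer to the start of R06C1.4, at 614 bp. Another stood 8548 bp upstream of daam-1, a formin gene (72.1), listed in replicate 1 at 51.5 and not in replicate 2. Genes of chromatin and transcription included cbp-1 (915 bp upstream, 96.1), pygo-1, a Wnt pathway cofactor gene (2899 bp, 91.3), and rpom-1, the mitochondrial RNA polymerase gene (671 bp past the end, 89.3). Members near ain-1, a GW182-type gene of miRNA silencing (962 bp upstream, 84.4), bcat-1, a branched-chain aminotransferase gene (592 bp, 97.7), otub-2, a deubiquitinase gene (1008 bp, 88.7), and zmp-2, a matrix metalloproteinase gene (3377 bp, 97.9) were also listed. Others stood by tag-340 (99.5), F22H10.2 (98.7), fbxb-58 (98.4), F55G7.5 (98.3), fbxa-51 (96.3), the pseudogene F07H5.5 near F07H5.13 (96.2), mstr-1 (94.6), Y37D8A.5 (92.9), srx-108 (90.2), mir-52 (91.2) and 2 tRNA-Glu genes near dpy-1 (83.99).

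A pair of members upstream of din-1, a nuclear corepressor gene, reached the thresholded list only by overlap. Their own entries had signals of 81.0 and 53.2 and IDR values of 0.255 and 0.362, and 1 thresholded entry with a signal of 34.7 lay across the space between them. Without that pair, 35 members had an entry of their own that passed. At the first, signals were 69.97 in replicate 1 and 15.3 in replicate 2, and at the other 15.2 and 35.6, so each summit was high in a different library.

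The base composition of the members was higher in G and C than that of the weaker distal intergenic regions. In 100 bp around the summit the GC content averaged 41.7 ± 8.70% over the 1206 members and 37.7 ± 8.22% over the 8025 weaker regions (SD over regions). It was 42.4 ± 9.37% in strong regions within 500 bp upstream of a start, 40.4 ± 8.63% in strong intronic regions and 42.8 ± 8.51% over all strong regions. The members held a mean of 3.94 CG dinucleotides in the window, and the weaker regions 3.25. Bases masked as repeats in the RefSeq sequence made up 22.0% and 29.5% of the windows. The members' spread was wide, from 15% to 70% GC, and the sets overlapped over most of their range.

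**Figure D2:**
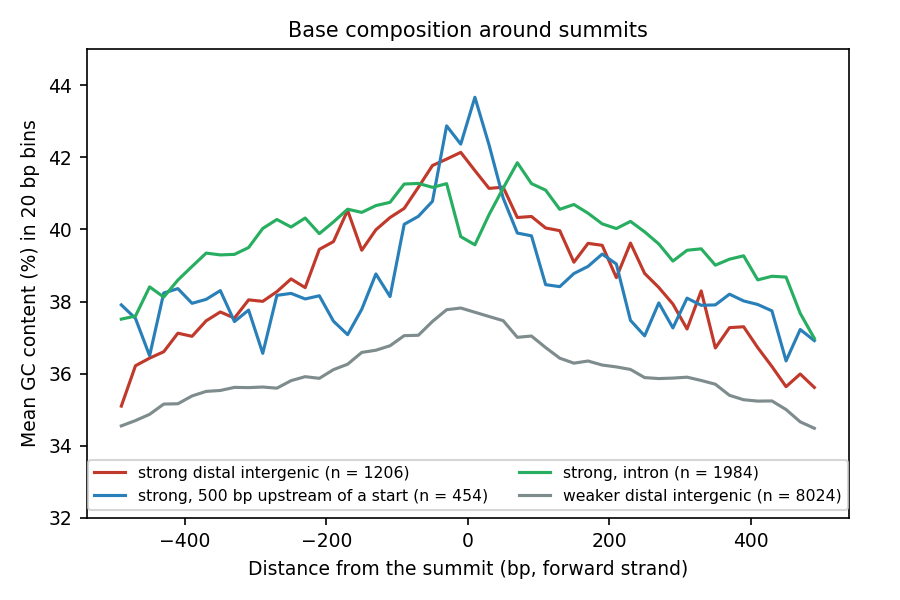
Mean GC content in 20 bp bins, by distance from the summit on the forward strand, for the 1206 strong distal intergenic regions, 454 strong regions upstream of a start, 1984 strong intronic regions and 8024 weaker distal intergenic regions (1 lies too near a chromosome end). The members' curve has its top of 42.1% at the summit and its lowest point, 35.1%, at the edge of the window, against a top of 37.8% and a lowest point of 34.5% in the weaker regions.

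The GC profile of the members had its top at the summit, from 35.1% at the far edge of a 500 bp flank to 42.1% at the top. The weaker regions had a flatter curve, between 34.5% and 37.8%. Among distal intergenic regions grouped by signal, mean GC content was 36.5% below a signal of 20, then 37.5%, 38.4% and 39.1% in the next classes up to 50. Among the members it was 41.01 ± 8.21% at signals of 50 to 60, 41.9 ± 8.75% at 60 to 75, 44.97 ± 9.73% at 75 to 100 and 47.4 ± 13.0% for the 19 at 100 or more. The 37 members in the replicate-compared thresholded list averaged 47.2 ± 9.15% and the other 1169 averaged 41.6 ± 8.64%. Neighbouring classes differed by less than the SD within a class. The lowest and the highest class differed by more than the SD of the lowest (8.27%) and by less than the SD of the highest (13.0%). The ranges of members and weaker regions overlapped, so GC content did not separate them one by one. Whether GC content affected recovery or sequencing was not tested.

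Repeated sequence was less frequent among the members than among the weaker regions. A window was called repeated where at least 50% of its words of 24 bases occurred at more than 1 place in the genome. By that measure 43 members were repeated (3.57%, 2.59 to 4.77%), against 9.42% (8.79 to 10.1%) of the weaker regions. It was 3.38% of strong intronic, 1.98% of strong upstream and 2.13% (1.81 to 2.49%) of all strong regions. A share below that of the weaker regions was thus common to strong regions and not particular to the members. Among distal intergenic regions, the share was 14.9% below a signal of 20 and 2.87% at signals of 50 to 60. At 75 to 100 it was 6.73%. Among the 15 strongest members, the eel-1 region was the 1 in repeated sequence. Of its words, 71.4% occurred at more than 1 place, with a median of 60 places over its words.

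**Figure D3:**
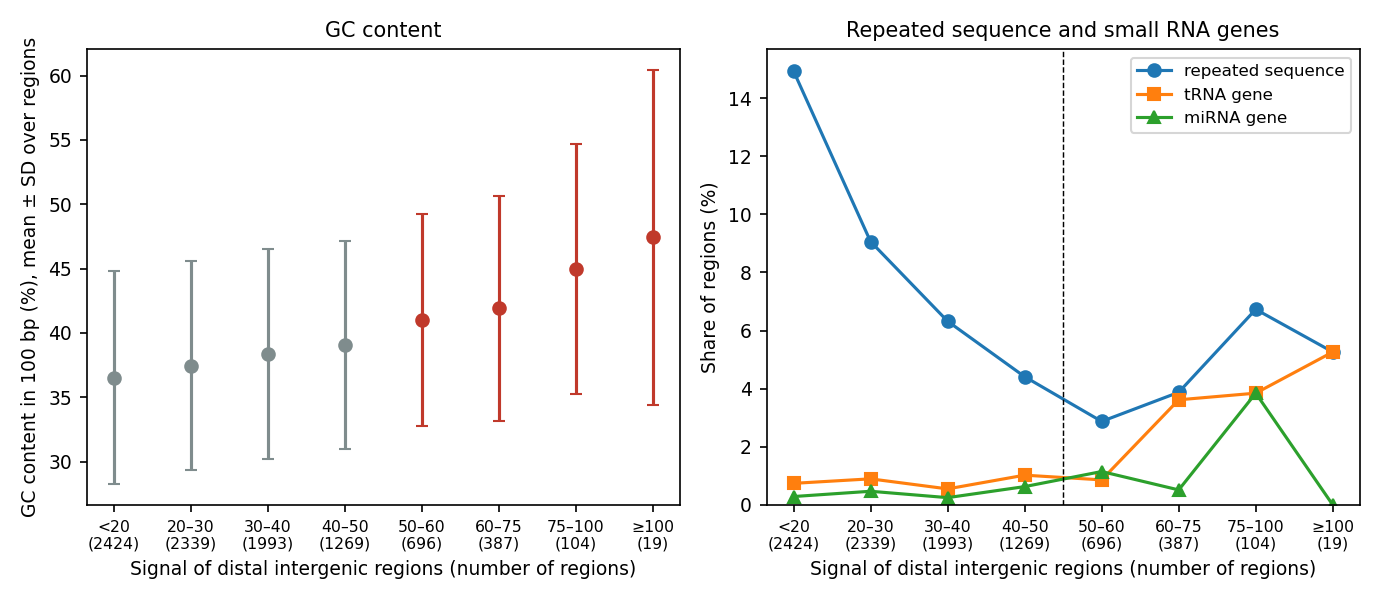
Distal intergenic regions grouped by signal, with the number of regions under each class. On the left is the GC content in 100 bp around the summit (mean ± SD over regions; strong regions in red), from 36.5% in the lowest class to 47.4% in the highest. On the right is the share in repeated sequence and the share with a tRNA or a miRNA gene within 100 bp of the entry; the dashed line marks the signal limit of 50.

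The 8 words searched on both strands in the 100 bp windows were mostly about as frequent in members as in weaker regions. GAGAGA was in 10.8% of members (9.09 to 12.7%) and 7.04% of weaker regions (6.49 to 7.62%), and in 14.5% of strong upstream and 7.61% of strong intronic regions. CGCGCA was in 2.57% of members (1.75 to 3.63%) and 1.74% of weaker regions (1.47 to 2.06%), and in 5.95% of strong upstream regions. AGCGCG was in 1.33% of members and 1.35% of weaker regions. The 2 can share letters, since AGCGCG followed by CA holds both. The E-box words CACGTG and CAGCTG were each in 1.66% of members, against 1.84% and 2.03% of weaker regions. TGATAA was in 8.04% of members and 8.49% of weaker regions. CATATA was in 4.39% and 4.71%. The word TTTTTTTT was in 6.88% of members and 8.97% of weaker regions. Among the 6 strongest members shown above, CGCGCA was in the F20B6.9 and W02H3.3 windows and GAGAGA in those of T04C4.3 and C30E1.4. The T04C4.3 window also held CACGTG.

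Genes of some noncoding RNA classes lay at more of the members than of the weaker regions. An annotated noncoding gene or pseudogene stood within 100 bp of the highest entry, which was 540 bp wide for every member, at 466 of the 1206 members (38.6%, 35.9 to 41.5%), and at 33.1% of the weaker regions (32.04 to 34.1%). A tRNA gene was at 25 members (2.07%, 1.35 to 3.04%) and 0.785% of weaker regions (0.604 to 1.00%). A miRNA gene was at 14 members (1.16%, 0.636 to 1.94%) and 0.386% of weaker regions (0.263 to 0.548%). Genes of the class ncRNA were at 233 members (19.3%, 17.1 to 21.7%) and 11.0% of weaker regions (10.4 to 11.7%). For snoRNA genes the shares were 0.746% (9 members) and 0.399%, for lincRNA genes 1.41% (17) and 1.08%, and for snRNA genes 0.0829% (1) and 0.0997%, with overlapping intervals. In strong upstream and strong intronic regions, tRNA genes were at 1.10% (0.359 to 2.55%) and 1.26% (0.817 to 1.85%). The miRNA shares there were 0.220% (up to 1.22%) and 0.454% (up to 0.859%). These intervals overlapped those of the members. Genes of the class ncRNA were at 15.4% (12.2 to 19.1%) and 9.83%, and snoRNA genes at 1.76% and 1.21%, more than in members.

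Set beside the weaker regions, pseudogenes and piRNA genes went the other way. In strong upstream and strong intronic regions, pseudogenes were at 2.20% and 1.16%, and at 4.74% of all ranked regions, fewer than in members. The piRNA shares were 1.54% (0.622 to 3.15%), 1.76% (1.23 to 2.44%) and 2.57%, with intervals that overlapped those of the members. A pseudogene was at 174 members (14.4%, 12.5 to 16.5%), with the summit inside it at 147, and at 17.5% of weaker regions (16.7 to 18.4%). A piRNA gene was at 31 members (2.57%, 1.75 to 3.63%), of which 27 lay on chromosome IV, where the piRNA clusters of the worm are, and at 3.86% of weaker regions (3.45 to 4.31%), with overlapping intervals. No rRNA gene was at any of the 1206 members. The same held for all 43349 merged ranked regions, so this was not particular to the members. The count of 0 among the members allows a share of up to 0.305% by the exact interval.

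**Figure D4:**
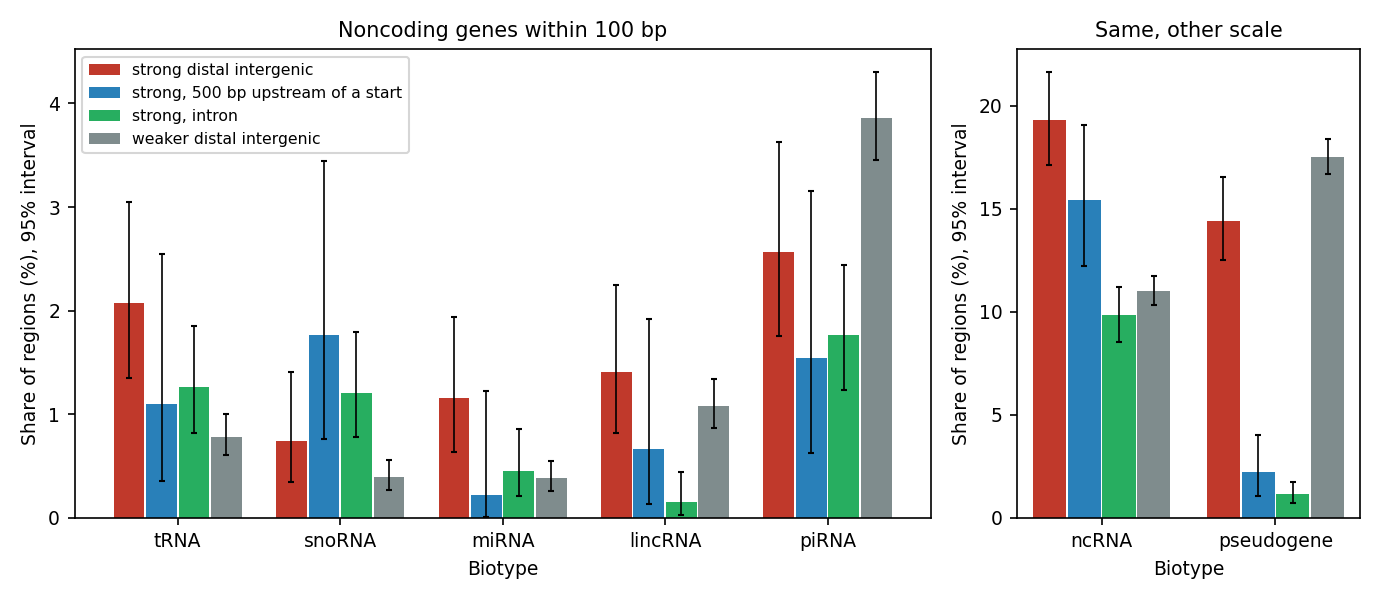
Share of regions with a noncoding gene of each class, or a pseudogene, within 100 bp of the entry, with exact 95% intervals, for strong distal intergenic, strong upstream, strong intronic and weaker distal intergenic regions. The members' bars stand above those of the weaker regions for tRNA (2.07% and 0.785%), miRNA (1.16% and 0.386%) and ncRNA genes (19.3% and 11.0%), and below them for piRNA genes and pseudogenes. For tRNA and miRNA genes the intervals of the strong upstream and strong intronic regions overlap those of the members.

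By signal class, the tRNA share was 0.862% of the members at signals of 50 to 60. The weaker classes had 0.552% to 1.02%. The share was 3.62% at 60 to 75 and 3.85% at 75 to 100. The miRNA share in the same 3 classes of members was 1.15%, 0.517% and 3.85%, with no steady rise. The classes were cut on the signal that chose the members and hold few such regions each, so where the higher tRNA share lies was not tested. The 25 regions held 31 tRNA genes. By count these were led by tRNA-Ser with 6 of the 39 in the genome, tRNA-Glu with 5 of 41 and tRNA-Leu with 4 of 39. Of the 25 regions, 20 were in the ranked list of each replicate. The summit lay inside the gene at 6. Of the 25, 15 were on X, where 126 of the 198 tRNA genes in distal intergenic positions also lie. On X a tRNA gene was at 5.14% of members (2.90 to 8.33%) and 2.07% of weaker regions (1.47 to 2.83%). On the autosomes it was at 1.09% of members (0.526 to 2.00%) and 0.404% of weaker regions (0.262 to 0.596%). The share was higher in members on either kind of chromosome, with intervals that overlapped on the autosomes and stood just apart on X.

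The highest tRNA region was that of C18A11.t2, a tRNA-Arg gene, upstream of xol-1 (signal 114.8). Next came ZK899.t1, a tRNA-Pro gene, at 9467665 of X, with 86.5 (54.1 in replicate 1 and 29.1 in replicate 2). The pair of tRNA-Glu genes near dpy-1, M01E10.t1 and M01E10.t2, had 83.99 (46.5 and 42.8). A pair of tRNA-Pro genes, F46G11.t1 and F46G11.t2, had 79.2, with 51.2 in replicate 1 and no entry in replicate 2. The region of the single snRNA gene, sls-2.2, which encodes an SL2 spliced leader RNA, had 88.9 at 5543722 of II, with 38.7 in replicate 1 and 44.8 in replicate 2. The highest snoRNA region was that of ZK20.9, upstream of din-1, with 76.9 (28.7 and 49.1).

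Among lincRNA genes, linc-128 stood far above the rest. The next were linc-87, near Y75B8A.7 at 12150234 of III with a signal of 87.8 (42.7 in replicate 1 and 43.0 in replicate 2), and F40H3.6, near fkh-8 at 6187594 of II with 85.6 (43.7 in both). The lincRNA gene linc-150 shared its region with mir-73 and mir-74. For ncRNA genes the share was 33.6% of members (28.17 to 39.3%) and 18.1% of weaker regions (16.3 to 19.9%) on X. On the autosomes it was 14.8% (12.5 to 17.2%) and 8.94% (8.24 to 9.68%). The ncRNA class was thus more frequent on X in both sets, and more frequent in members on both kinds of chromosome.

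The miRNA regions are given with 8 mature RNAs of 7 of their genes, each read from the gene's own strand, 5′ to 3′, as RefSeq annotates them on ce11, because several share a seed. The capitals mark the seed, bases 2 to 8. Mature products carry the letter a or b of the RefSeq name, and the second of a pair with the same seed follows the first. They lie at chrIV:14034024-14034047 (plus strand), chrX:14744234-14744255 (minus), chrIII:8865285-8865307 (minus), chrIV:1027143-1027164 (plus), chrX:2368826-2368848 (plus), chrX:2369103-2369124 (plus), chrIV:1027101-1027123 (plus) and chrIV:1027218-1027240 (plus).
mir-52 a: cACCCGUAcauauguuuccgugcu
let-7 a: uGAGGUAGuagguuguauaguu
mir-80 b: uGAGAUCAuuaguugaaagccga
mir-2209.1 b: aGAGAUCAgcgguuacacuaca
mir-73 b: uGGCAAGAuguaggcaguucagu
mir-74 b: uGGCAAGAaauggcagucuaca
mir-2209.1 a: gAGUGUAAccacucuucuccuuc
mir-2209.3 a: gAGUGUAAccgcacgucuuguuu
The products mir-80 b and mir-2209.1 b have the same seed, as do mir-73 b and mir-74 b, and mir-2209.1 a and mir-2209.3 a. The last 2 pairs lie in 1 region each, while mir-80 and mir-2209.1 are on different chromosomes.

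The 14 miRNA regions, out of 1206 members, held 18 of the 114 miRNA genes in distal intergenic positions (15.8%). The weaker regions, far more numerous at 8025, held 32 (28.1%). Of the 14 miRNA regions of the members, 4 had the summit inside the gene. The highest was mir-52, with its summit at 14034069 of IV inside the hairpin gene and a signal of 91.2 (54.0 in replicate 1 and 42.6 in replicate 2). It was the 1 miRNA region in the replicate-compared thresholded list. The mir-80 summit, at 8865593 of III, lay 226 bp from the gene with 85.6, listed in replicate 1 at 41.1 and not in replicate 2. The region of mir-73 and mir-74 had 79.5 (49.8 and 19.9), with the summit 47 bp from mir-73 and 133 bp from mir-74.

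The let-7 region, at the gene of a heterochronic miRNA that times late larval fates, had a signal of 68.1, with 40.8 in replicate 1 and 25.3 in replicate 2. Its summit, at 14744493 of X, was inside the annotated gene, which is longer than the hairpin. The mir-239.1 region had 69.5 and was in neither replicate's ranked list. The mir-8209 region had 79.1, with 45.9 in replicate 1 and 35.3 in replicate 2. The other miRNA regions had lower signals. They were mir-8189 (58.4), mir-784 (58.4), mir-794 (57.6), mir-2209.1 with mir-2209.3 (56.7), mir-42 with mir-43 and mir-44 (54.8), mir-79 (53.1), mir-2208.1 (52.3) and mir-8194 (51.2). Of the 14 regions, 12 were listed in replicate 1 and 10 in replicate 2.

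Along the genome, the members were spread over every chromosome. Per Mb of distal intergenic sequence there were 51.1 on I, 53.1 on II, 52.6 on III, 38.1 on IV, 43.5 on V and 49.2 on X, with 46.99 over all. Weaker regions also had their lowest value on IV, with 254 per Mb against 313 over all, while on V they had 333. X held 292 members (24.2%, 21.8 to 26.7%) and 22.9% of weaker regions, beside 23.1% of the distal sequence. By contrast, X held 17.8% of strong upstream and 15.3% of strong intronic regions. The members' share on X was thus close to the share of distal sequence that X holds.

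On the autosomes, 74.6% of members (71.7 to 77.4%) lay in the arms, the first and last of 3 equal parts, and 68.8% of weaker regions (67.6 to 69.9%). The arms hold 68.8% of the distal intergenic sequence of the autosomes. The share was 69.4% (64.5 to 74.1%) for strong upstream and 76.9% (74.8 to 78.9%) for strong intronic regions. The arms of worm autosomes are richer in repeats and in fast-evolving gene families than the centres.

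The members fell into 997 gaps between protein-coding genes, with 3 members beyond the last gene of a chromosome. Of these gaps, 841 held 1 member and 156 held 2 or more, with 362 members among them. The gap around a member had a median length of 7454 bp and that around a weaker region 7368.5 bp. The nearest protein-coding gene end or start lay at a median of 1722.5 bp from a member and 1764 bp from a weaker region. Members lay between divergent genes in 36.7% of cases and between convergent genes in 9.14%, against 36.7% and 9.63% of weaker regions. In these respects members and weaker regions were alike to within a few percent.

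**Figure D5:**
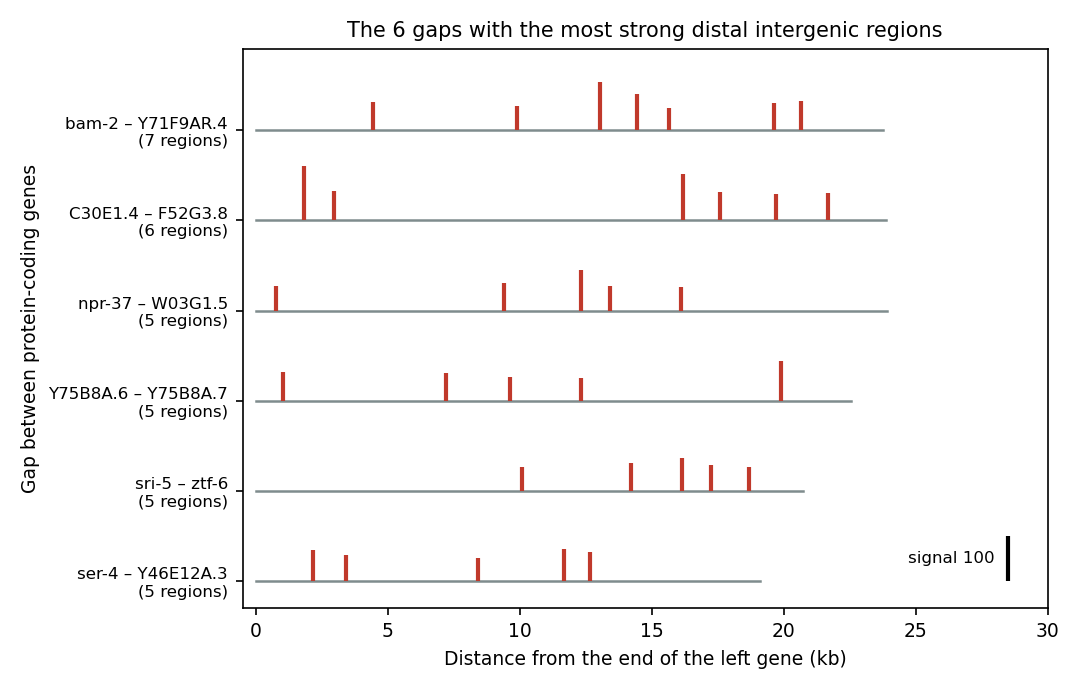
The 6 gaps between protein-coding genes with the most strong distal intergenic regions, each drawn as a line from the end of the left gene; red bars mark the members, with the height of a bar giving its signal (black bar, 100). The members stand 5 to 7 to a gap, with the highest in the C30E1.4 gap (122) and the bam-2 gap (107).

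The gap between bam-2 and Y71F9AR.4 on chromosome I, 23746 bp long, held 7 members with signals from 50.1 to 107. That between C30E1.4 and F52G3.8 on X, 23880 bp long, held 6 with signals from 59.4 to 122. In it the ncRNA gene C30E1.9 lay at 3 of the members, and the pseudogenes F52G3.3 and F52G3.4 at the other 3. The gaps npr-37 to W03G1.5, Y75B8A.6 to Y75B8A.7, sri-5 to ztf-6, and ser-4 to Y46E12A.3 held 5 each. Here npr-37 encodes a neuropeptide receptor, ser-4 a serotonin receptor, and ztf-6 another zinc finger protein. The shortest of the 6 was 19081 bp long, more than the median gap, and a long gap has more room for members.

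The 3 members farthest from any protein-coding gene stood on X and V. The summit at 21241 of X lay between the chromosome end and its first protein-coding gene, 21391 bp from the end of Y73B3A.1 and inside the pseudogene Y35H6.3, and had a signal of 79.5 (44.1 in replicate 1 and 34.2 in replicate 2). The summit at 17139370 of V, 15204 bp from the nearest gene, F40D4.17, had 58.5 (17.3 in replicate 1 and 40.9 in replicate 2). That at 12186207 of X, 13448 bp from cab-1, had 59.0 (39.7 and 15.3). The replicates gave similar values at the first of these, while replicate 2 was higher at that on V and replicate 1 at that near cab-1.

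The genes on either side of the members were grouped by 14 lists made from gene symbols. A member counted for a list where the nearest protein-coding start on either side belonged to it, at any distance. Wnt pathway genes were at 16 members (1.33%) and 0.536% of weaker regions, and homeobox genes at 36 members (2.99%) and 1.82%. Synaptic genes were at 15 members (1.24%) and 0.673% of weaker regions. Neuropeptide and insulin genes were at 21 members (1.74%) and 2.55% of weaker regions, and chemoreceptor genes at 91 (7.55%) and 8.98%. In all, 9 of the 14 lists had the higher share among members. Within 2000 bp of the start, 5 of the 14 had, and homeobox genes were at 0.415% of members and 0.449% of weaker regions. The higher homeobox share was thus at starts farther away than that.

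Of the 27 Wnt pathway genes, 17 were beside one of the 8025 weaker regions and 10 beside one of the 1206 members. The highest were a region between R06B9.5 and mig-14, which encodes the Wnt sorting receptor Wntless (signal 75.3, with 40.9 in replicate 1 and 34.2 in replicate 2), one upstream of egl-27, an MTA1-like chromatin gene (74.6, with 38.0 and 38.9), and one 7371 bp upstream of pop-1, the TCF gene (73.4, with 37.1 and 39.4). Upstream of pop-1 there were 3 members in all, with 63.6 and 61.9 at the others. Regions near bar-1, a beta-catenin gene (60.4), and lin-17, a Frizzled gene (60.3), followed. The egl-27 region also counts for the synaptic list, since snt-1, the synaptotagmin gene, lies on its other side.

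Of 95 homeobox genes, 51 were beside a weaker region and 28 beside a member. The highest were those of unc-42, a regulator of neuron identity (signal 91.3), ceh-22, a pharyngeal NK-2 type gene (84.4), and zag-1, a neuronal gene with zinc fingers as well (75.4). Each of these 3 was listed in both replicates, with 53.9, 51.9 and 42.9 in replicate 1 and 30.8, 31.1 and 31.2 in replicate 2. In the region of unc-42 the nearest start was that of F58E6.11, at 651 bp, and in that of ceh-22 it was that of gsp-1, at 914 bp. At both, another gene's start was nearer than that of the listed gene. Of the 42 synaptic genes, 22 were beside a weaker region and 11 beside a member. The members were led by unc-64, then snt-1 and syd-2, a liprin gene of active zones (601 bp upstream, 70.4, listed in replicate 1 at 50.4 only).

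Nuclear receptor genes were at 54 members (4.48%) and 3.98% of weaker regions. Their highest was 2499 bp upstream of nhr-88 (signal 101, with 62.1 in replicate 1 and 53.5 in replicate 2), whose window had a GC content of 70%, the highest value found among the members and shared with 2 others. The next were upstream of nhr-48 (85.8, with 42.9 and 42.7) and beside nhr-290 (76.8, with 48.3 and 31.8). F-box genes were at 35 members (2.90%) and 2.39% of weaker regions, led by fbxb-58 and fbxa-51. In the neuropeptide and insulin list the highest were ins-13, beside sls-2.2, daf-28, an insulin gene of larval development (5438 bp upstream, 87.8), and ins-39 (575 bp upstream, 67.6).

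The smaller lists had few members each. Heterochronic genes, which time larval stages, were at 4 members (0.332%) and 0.274% of weaker regions. These were at hbl-1 (signal 64.3, 10122 bp from its start) and at lin-14 with a pair of regions (59.5 at 7935 bp and 55.6 at 607 bp). The last was at lin-41 (53.1, 9634 bp from its start), whose region also holds mir-79. The hbl-1 and lin-14 regions were listed in replicate 1 and not in replicate 2. Basic helix-loop-helix genes were at 6 members (0.498%) and 0.847% of weaker regions, led by hif-1, the hypoxia-inducible factor gene (71.6). The hif-1 start lay 3412 bp from its summit, and that of F38A6.4 was nearer at 1626 bp. Collagen genes were at 11 (0.912%) and 1.16%, led by col-105 (72.3) and col-98 (68.7). The col-105 start lay 24273 bp from its summit, nhr-41 was nearer at 2717 bp, and the region was not listed in replicate 2. At col-98, 3224 bp away, signals were 52.3 in replicate 1 and 12.8 in replicate 2. C-type lectin genes were at 11 (0.912%) and 1.196%, led by clec-258 (65.8). Ribosomal protein genes were at 5 (0.415%) and 0.386%, and histone genes at 4 (0.332%) and 0.287%, led by hil-3, a linker histone gene (66.8). The hil-3 start lay 7527 bp from that summit, and that of F22F1.2 was nearer at 921 bp. Heat shock genes were at 2 (0.166%) and 0.0374%, both with hsp-16.1 on 1 side (64.3 and 51.6, at 8713 and 6165 bp from its start). Each was listed in replicate 2 and not in replicate 1. Counts this small carry wide counting error.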

How the data were processed

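ChIP-seq peak lists of 2 biological replicates were used, on assembly ce11 per the text notes deposited beside them. The authors' signal value gives the strength of each peak. The deposited −log10 values are the peak caller's q-value and the IDR, both read from their place in the columns. The sources used here do not name the peak caller or aligner. The matching control library was not used here. Which lists each comparison paired follows the values of the lists. Entries were merged at 1 bp of overlap. A replicate's signal is that of its highest ranked entry containing the summit. Gene models were those of Ensembl release 115, and sequence, tRNA products and mature miRNAs came from RefSeq. Noncoding genes were taken within 100 bp of the highest entry. Intervals are exact Clopper-Pearson intervals at 95%. Without replicates of a contrast no test was run, and with 2 replicates the spread of a signal rests on 2 values.

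Scripts in Python 3.11.15 with pandas 2.3.3, numpy 2.4.6 and scipy 1.17.1 were tested on simulated peaks and gene models. Named regions were the 15 strongest, those in the replicate-compared thresholded list (1 is not reported here), up to 4 per small RNA class (all for miRNA genes), the extremes of distance and of replicate ratio, those at each limit, and up to 3 per gene list, with a few more values per list chosen afterwards. The members, words and gene lists were chosen with earlier results of these data known. Alternatives changed the signal and distance limits, merging, the list used, the IDR, window, word length and arm definition.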

Additional observations from a re-analysis of the deposited data

How the results depend on the processing

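Of 106 values recomputed under other choices, 67 stayed within the limit set for their kind: a share within its exact interval, a mean or median within 1 SD over members, and the number of members within 1.5 times. The SD is that of single regions, so this limit is wide for a mean. Mean GC content counted as within it even at a signal of 100 or more, where it was 47.4%, against 41.7% for all members. Requiring a signal of 75 or more left 123 members (15.2% of strong regions), with a median signal of 84.4. Of these, 46.3% were at a noncoding gene or pseudogene, 4.07% at a tRNA gene, 3.25% at a miRNA gene, 6.50% in repeated sequence, 79.3% of the autosomal ones in arms and 28.5% in the thresholded list. A signal of 100 or more left 19 (18.1%), with a median of 113 and shares of 26.3%, 5.26%, 0%, 5.26%, 100% and 78.9%, and 42.1% on X. An IDR of 0.05 or less left 129 (14.2%), with a median of 83.3 and shares of 41.9%, 3.88%, 2.33% and 6.202%, 27.1% in the thresholded list and 21.7% on X. A distance over 1000 bp gave 881 members (12.3% of strong regions). Summits inside no gene of any biotype gave 958 (13.4%), of which 22.8% were at a noncoding gene. Counting genes that contain the summit gave 20.6% for any noncoding gene, 0.498% for tRNA and 0.332% for miRNA genes. Words of 36 bases gave 1.91% repeated, and arms as the outer parts of 4 gave 57.1%. From 1 replicate's list alone, limited to its 7175 highest regions so that the number of regions is set in advance, the median signal was 29.3 to 35.5, on that list's own scale, and the other shares stayed within their intervals. Within 2000 bp, 5 gene lists were higher in members, against 9 at any distance. The cause of these changes was not tested beyond what each limit removes. No paired analysis was possible because there was 1 group. The depth is unknown, so the precision of a single signal cannot be given.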
